A study of Mus musculus with 412 samples.

Results

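Sensory neurons of the gut are excited by stretch, distension and stroking of the bowel wall, and the ion channels that open under force sit at their endings. Piezo2 is the principal channel of light touch and proprioception, and Piezo1, its paralogue, is best known from endothelium and red cells. The Tmem63 genes are the mammalian relatives of the plant OSCA channels, which are opened by osmotic and mechanical stress. Tmem120a (TACAN) and Tmem150c (Tentonin 3) were proposed as channels or channel subunits of mechanosensitive currents, and for both this role is disputed. Stoml3 is a stomatin-like membrane protein that raises the sensitivity of Piezo channels in touch receptors.

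The 8 genes Piezo1, Piezo2, Tmem63a, Tmem63b, Tmem63c, Tmem120a, Tmem150c and Stoml3 were taken by their Ensembl identifiers from a table of 45513 genes, in which all 8 were listed. They were described in 325 colonic sensory neurons of C57BL/6J mice, 167 from thoracolumbar (TL) and 158 from lumbosacral (LS) dorsal root ganglia (DRG), whose age and sex are not given in the sources used here. No treatment is named in the labels, and all neurons had been labelled by Fast Blue, a tracer injected into the wall of the colon and carried back to the cell body. Ganglia of the segments were dissociated into separate cultures, from which neurons were picked by hand. Each was sequenced as a library of its own by Smart-seq2, which makes full-length cDNA from polyadenylated RNA. The libraries were made in 6 plates, and both segments were present in plates 2 to 6.

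Levels are given in transcripts per 1000000 (TPM), in which reads are divided by gene length and the sum over all genes is the same in each neuron, so that levels may be set beside each other between genes. A gene was called present in a neuron at 10 TPM or more. The mouse of each neuron is not named, so that each segment stands for 1 sample, no p-value was computed, and the SD values describe the spread between neurons. Intervals of shares are exact 95% binomial intervals on counts of neurons. They cover counting error only and not the spread between mice or cultures, which are not named for each neuron. PCR reads without molecular identifiers are also not independent molecules. Neurons were grouped by 3 marker genes at 10 TPM or more. Gfra3, the receptor for artemin, marks peptidergic neurons. Mrgprd, a G protein-coupled receptor, marks non-peptidergic nociceptors, and Ntm encodes the cell adhesion molecule neurotrimin. Mrgprd was present in 15 TL and 2 LS neurons, which formed a class of their own. Of the neurons without Mrgprd, 98 TL and 42 LS neurons had Gfra3 without Ntm, 40 LS and 0 TL neurons had Gfra3 and Ntm together, and 54 TL and 74 LS neurons had no Gfra3. Comparisons by Gfra3 or by Ntm alone also took in the Mrgprd neurons, and Gfra3 was then present in 100 TL and 83 LS neurons.

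Between 416007 and 12058968 reads were recovered per neuron, with medians of 2709639 for TL and 3202776 for LS, and between 6291 and 17193 genes were above 0. All 8 genes of a sensory neuron list, such as Tubb3 and Prph, had medians above 0, and their summed level was between 2221 and 29960 TPM. The summed level of 10 satellite glia genes ran from 5.34 to 101700 TPM, with medians of 3801 TPM for TL and 2024 TPM for LS, so that some libraries held much glial RNA. Of the 7 endothelial and of the 7 macrophage genes, 6 had a median of 0. Expression of a gene in a neuron cannot be told apart from RNA of attached cells in the same library.

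Of the 3 Tmem63 genes, Tmem63a was present in few neurons and Tmem63b and Tmem63c in most. The 250 bases before their start of transcription are shown to place them side by side. They come from RefSeq on GRCm38.p6, Tmem63a from chr1:180942268-180942517 (plus strand), Tmem63b from chr17:45686219-45686468 (minus strand) and Tmem63c from chr12:87021090-87021339 (plus strand), and capitals mark each CG.
Tmem63a: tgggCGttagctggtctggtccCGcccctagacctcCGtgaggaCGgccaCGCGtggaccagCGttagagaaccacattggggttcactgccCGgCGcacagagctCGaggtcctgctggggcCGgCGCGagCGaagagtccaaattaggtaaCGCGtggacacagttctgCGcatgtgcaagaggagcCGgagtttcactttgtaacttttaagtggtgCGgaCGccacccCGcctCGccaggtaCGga
Tmem63b: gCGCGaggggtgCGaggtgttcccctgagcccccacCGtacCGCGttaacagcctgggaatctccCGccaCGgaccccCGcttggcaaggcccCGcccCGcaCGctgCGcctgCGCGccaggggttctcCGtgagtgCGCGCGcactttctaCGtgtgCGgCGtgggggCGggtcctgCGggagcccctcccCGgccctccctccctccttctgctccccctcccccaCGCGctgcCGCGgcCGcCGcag
Tmem63c: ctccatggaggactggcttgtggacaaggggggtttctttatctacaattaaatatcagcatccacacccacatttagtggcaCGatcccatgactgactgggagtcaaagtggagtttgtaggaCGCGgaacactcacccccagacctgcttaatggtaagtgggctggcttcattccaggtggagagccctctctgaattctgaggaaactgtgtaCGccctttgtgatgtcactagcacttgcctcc

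The letters CG occurred 23 times before Tmem63a, 31 times before Tmem63b and 4 times before Tmem63c, against a median of 6 over 32851 such stretches of mouse genes. Of all stretches, 86.7% held fewer CG than that of Tmem63a, 94.8% fewer than that of Tmem63b and 37.8% fewer than that of Tmem63c. RefSeq lists a second start for Tmem63c further downstream, whose stretch held 5 CG. The letters TATAAA, searched on both strands and present in 12.37% of all stretches, were found in none of the 3 shown and in the stretch before the second start of Tmem63c. Outside this family, the stretch before Stoml3 held 2 CG, that before Tmem120a 27 and that before Piezo1 26. Counts of letters describe these stretches and say nothing of which factors bind them.

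Of the 8 genes, 4 were found in most neurons. Tmem63c had the highest mean in both segments, at 62.8 ± 43.9 TPM (SD, n = 167) in TL and 68.5 ± 38.4 TPM (n = 158) in LS neurons. Tmem63b followed with 55.4 ± 29.4 TPM in TL and 55.8 ± 24.0 TPM in LS neurons. Tmem120a was at 41.5 ± 25.7 TPM in TL and 55.2 ± 29.4 TPM in LS neurons. The ranges of these 3 genes overlapped within each segment, and their medians were in the same order as their means. Tmem150c was lower, at 22.3 ± 16.8 TPM in TL and 21.5 ± 13.3 TPM in LS neurons. Tmem63b was present in 89.2% (83.5% to 93.5%) of TL and 94.9% (90.3% to 97.8%) of LS neurons, Tmem120a in 91.6% and 93.0%, Tmem63c in 86.2% and 91.1%, and Tmem150c in 78.4% and 84.2%.

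Piezo2 was high in part of the neurons and at or near 0 in others, with further neurons between. It was present in 73 of 167 TL neurons (43.7%, interval 36.1% to 51.6%) and in 72 of 158 LS neurons (45.6%, 37.6% to 53.7%). It was listed at 0 in 53 neurons of each segment, its median was 3.83 TPM in TL and 4.79 TPM in LS neurons, and its highest level was 190.7 and 240.9 TPM. Of the 325 neurons, 106 were at 0, 38 above 0 and below 1 TPM, and 36 from 1 to below 10 TPM. A further 63 were from 10 to below 50 TPM, and 82 were at 50 TPM or more. The mean of Piezo2, 30.3 ± 42.5 TPM in TL and 25.7 ± 35.1 TPM in LS neurons, was above that of Tmem150c although Piezo2 was present in fewer neurons.

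Tmem63a was present in 21 of 167 TL neurons (12.6%, 7.96% to 18.6%) and in 9 of 158 LS neurons (5.70%, 2.64% to 10.5%). Piezo1 was present in 2 neurons of each segment, and Stoml3 in 2 TL and 0 LS neurons. For Stoml3 in LS neurons, 0 of 158 allows a share of up to 1.90%. The means of Piezo1 were 0.814 TPM in TL and 0.383 TPM in LS neurons, and those of Stoml3 were 0.496 and 0.303 TPM. Piezo1 was listed at 0 in 231 and Stoml3 in 282 of the 325 neurons. Over neurons with a read on the gene, the median number of reads at 10 TPM was 124 for Piezo1 and 26.7 for Stoml3. These were 94 neurons for Piezo1 and 43 for Stoml3.

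**Figure D1:**
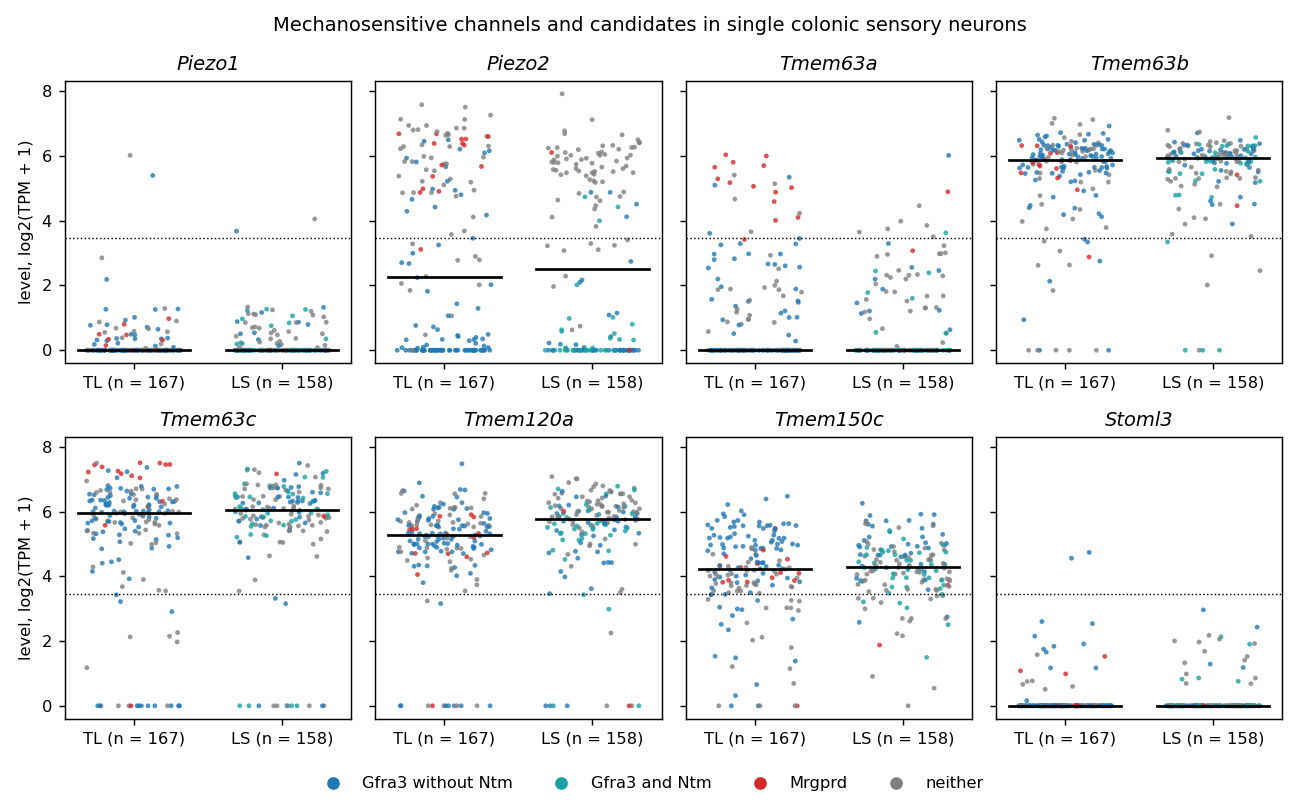
Level of each of the 8 genes in each neuron on the log2(TPM + 1) scale, by spinal segment (TL, n = 167; LS, n = 158). Points are neurons coloured by marker class, black bars are medians and the dotted line is 10 TPM. Tmem63b, Tmem63c, Tmem120a and Tmem150c lie mostly above the line, Piezo2 lies on both sides of it, and Piezo1 and Stoml3 lie mostly at 0.

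The labels name the spinal segment only. Per the paper, TL neurons reach the colon by the lumbar splanchnic nerve and LS neurons by the pelvic nerve. A gene was counted as past the fold where the ratio of mean levels was at least 2, the mean of both group means was at least 1 TPM and the direction was the same in each plate that held enough neurons of both groups. Of the 8 genes, 6 passed that level, and Piezo1 and Stoml3 did not. None of the 8 was past the fold between LS and TL neurons, where 6.88% of 15256 genes were. The median log2 ratio of the 6 genes was -0.02, against 0.05 over all genes compared. For Tmem63b the ratio of LS to TL was 1.01, and over plates it ran from -0.16 to 0.13 on the log2 scale.

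Of the 6 genes, Tmem63a had the log2 ratio between segments farthest from 0, with levels of 5.33 ± 12.5 TPM in TL and 2.12 ± 6.32 TPM in LS neurons. It was lower in LS neurons in 4 of 5 plates, by a log2 ratio of -1.33 over all, and higher in plate 4, where its means were 2.21 TPM in LS and 2.00 TPM in TL neurons. Without plate 4 it was past the fold, with a log2 ratio of -1.58. Among neurons without Mrgprd, the mean of Tmem63a was 2.48 ± 6.65 TPM in 152 TL and 1.92 ± 5.97 TPM in 156 LS neurons, and it was present in 8 neurons of each segment. Of the 21 TL neurons with Tmem63a, 13 had Mrgprd.

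Tmem120a was higher in LS than in TL neurons by a log2 ratio of 0.41, and was higher in 4 of 5 plates. Its quartiles were 26.0 and 53.4 TPM in TL neurons and 37.6 and 71.5 TPM in LS neurons, so that the groups overlapped widely. In plate 3 alone the means were nearly equal, at 50.5 TPM in TL and 50.0 TPM in LS neurons. Piezo2 was lower in LS neurons in 4 of 5 plates, with a log2 ratio of -0.24 that was small beside its spread between neurons.

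Piezo2 followed the Gfra3 marker in both segments. In TL neurons, Piezo2 had a mean of 8.70 ± 20.0 TPM in 100 neurons with Gfra3 and of 62.6 ± 46.6 TPM in 67 without, a log2 ratio of -2.85. It was lower with Gfra3 in each of 5 plates. In LS neurons the means were 2.17 ± 6.38 TPM in 83 neurons with Gfra3 and 51.7 ± 35.5 TPM in 75 without, a log2 ratio of -4.57, again lower in 5 of 5 plates. The medians with Gfra3 were 0 in both segments, against 55.8 TPM in TL and 49.5 TPM in LS neurons without Gfra3. Of LS neurons without Gfra3, 86.7% (76.8% to 93.4%) had Piezo2, and the lowest was at 0.544 TPM, so that none was at 0. By geometric means, which weigh the many neurons at 0 more, the log2 ratio was -4.76 in TL and -6.22 in LS neurons. The difference between segments in this contrast was not tested.

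By Gfra3, 3 of the 8 genes were past the fold in TL neurons, where 9.27% of all genes were. These were Piezo2 and Tmem63a, lower with Gfra3 like 3.61% of all genes, and Tmem150c, higher with Gfra3 like 5.66%. The group without Gfra3 held most Mrgprd neurons, and the mean of Tmem63a was 9.85 TPM in this group but 3.21 TPM in TL neurons with neither marker. Against the 2.08 TPM of TL neurons with Gfra3 and no Mrgprd, the latter was short of the fold. In LS neurons 1 of the 8, Piezo2, was past the fold, where 9.59% of all genes were and 5.24% were lower with Gfra3. Without plate 5, Tmem63a was past the fold in LS neurons too, with a log2 ratio of -2.33 against -0.86 over all plates. With the segments together, 2 of the 8, Piezo2 and Tmem63a, were past the fold, both lower with Gfra3, against 9.48% of all genes in either direction and 4.87% lower.

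Tmem150c was at 28.5 ± 18.4 TPM in TL neurons with Gfra3 and at 12.9 ± 7.04 TPM in those without, and was higher with Gfra3 in 5 of 5 plates. Its lowest, median and highest levels were 0, 28.2 and 87.8 TPM with Gfra3. TL neurons without Gfra3 reached 28.6 TPM at most, near the median of those with Gfra3, so the groups overlapped in the lower part only. In LS neurons the means were 24.9 ± 14.6 and 17.8 ± 10.5 TPM, a log2 ratio of 0.49, with a higher mean in 4 of 5 plates. Piezo2 and Tmem150c thus ran in opposite directions over Gfra3, and across all 325 neurons Spearman's rho between them was -0.27, a description over neurons that share plates and differ in depth.

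Tmem120a was nearly the same in TL neurons with and without Gfra3, at 41.6 and 41.4 TPM. In LS neurons it was at 44.6 ± 25.0 TPM with Gfra3 and at 67.0 ± 29.5 TPM without, lower with Gfra3 in each of 5 plates but by a ratio of 0.667, short of the fold. Tmem63b was at 57.6 and 52.2 TPM in TL and at 56.2 and 55.3 TPM in LS neurons with and without Gfra3. Its log2 ratios, 0.14 in TL and 0.02 in LS, changed sign between plates.

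**Figure D2:**
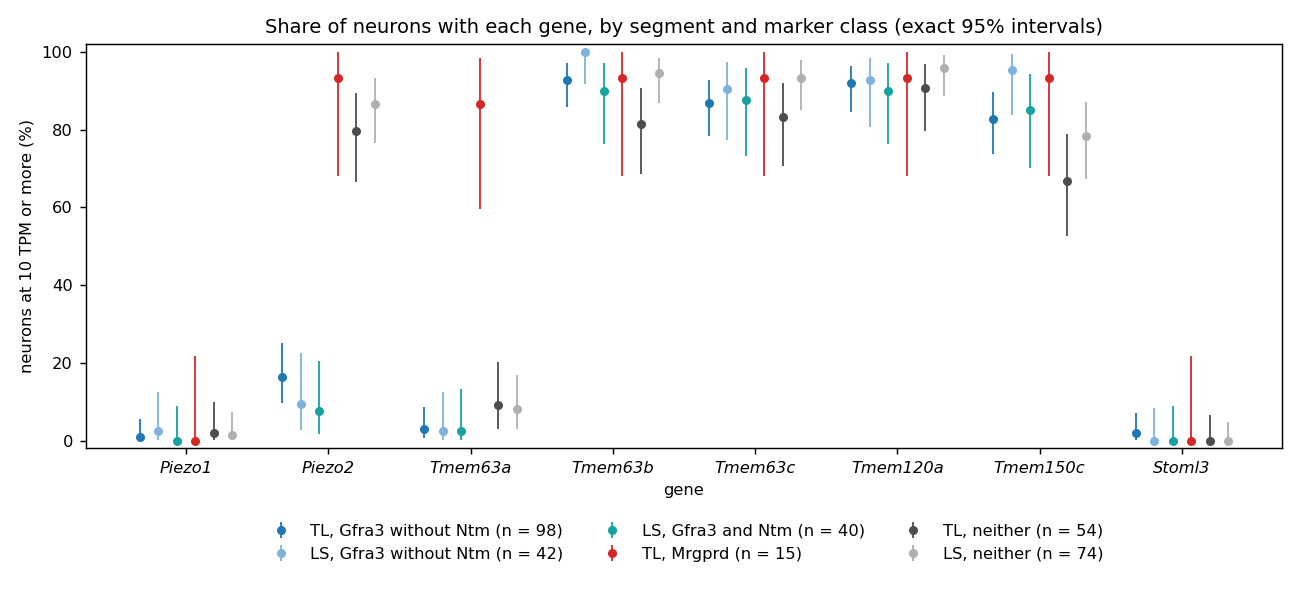
Share of neurons with each gene at 10 TPM or more (y axis, percent) for the 8 genes (x axis) in the 6 combinations of segment and marker class with at least 15 neurons. Points are shares and bars are exact 95% intervals for counting error. Piezo2 is present in few neurons of the Gfra3 classes and in most others, and Tmem63a is present in 86.7% of TL neurons with Mrgprd and in under 10% of each other class.

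Some neurons held Piezo2 and Gfra3 together. There were 18 of 167 in TL (10.8%, 6.51% to 16.5%) and 7 of 158 in LS DRG (4.43%, 1.80% to 8.92%). Their median Gfra3 was 263.7 TPM in TL and 481.7 TPM in LS neurons, while neurons with Gfra3 and no Piezo2 had medians of 1397 and 1425 TPM. Piezo2 in neurons with both had a median of 33.5 TPM in TL and 21.8 TPM in LS, against 77.3 and 54.8 TPM in neurons with Piezo2 only. Neurons with both thus had less of each than neurons with either alone, by their medians. In TL neurons with both, the median of Asic3, an acid-sensing channel, was 162.3 TPM, against 0 with Gfra3 only, 35.1 TPM with Piezo2 only and 124.5 TPM with neither. In LS neurons the median of Asic3 was 0 with both and 1.22 TPM with Piezo2 only, so that the high level with both was seen in TL neurons. The median of Trpa1, a channel opened by irritants, was 37.8 TPM with both and 517.5 TPM with Gfra3 only in TL, and 6.25 and 92.8 TPM in LS neurons. Nefh (neurofilament heavy chain) had medians of 91.8 TPM with both, 16.8 TPM with Gfra3 only and 316.6 TPM with Piezo2 only in TL neurons. In LS neurons these were 77.7, 35.8 and 192.9 TPM, in the same order.

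Neither Piezo2 nor Gfra3 was present in 12 TL and 10 LS neurons. These had a median of 9199 and 9569 genes above 0, against at least 13639 in each of the other combinations. Their medians of Tmem63b, 13.8 TPM in TL and 15.0 TPM in LS, were also below those of the other groups. The part of library quality in the absence of both genes was not tested.

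**Figure D3:**
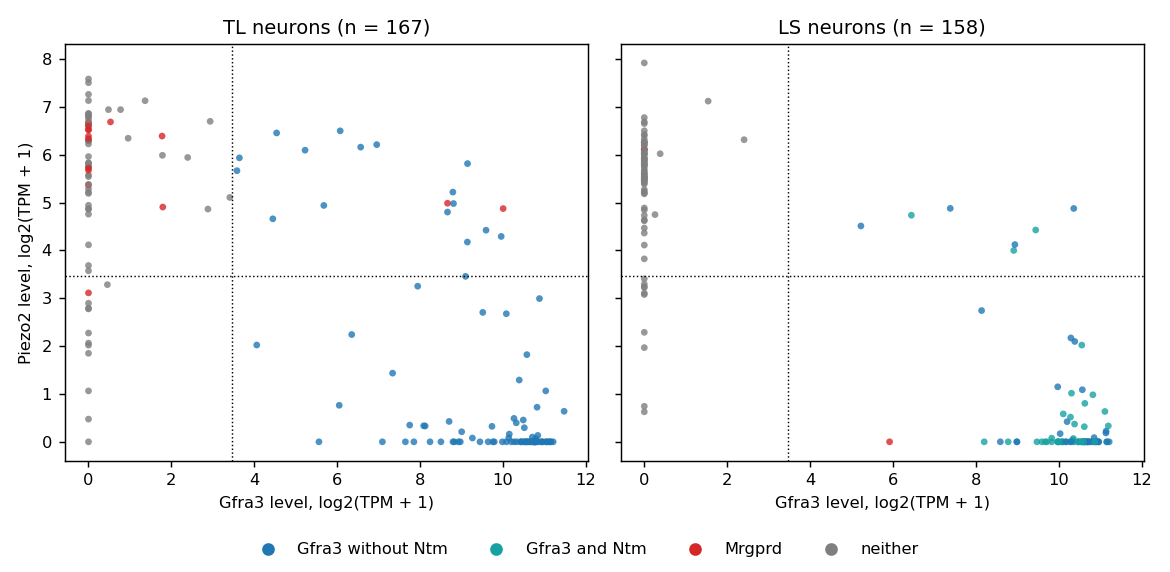
Piezo2 (y axis) against Gfra3 (x axis) in each neuron, both as log2(TPM + 1), in TL (n = 167) and LS (n = 158) neurons. Points are neurons coloured by marker class and dotted lines are 10 TPM. Most neurons lie along an axis, with 18 TL and 7 LS neurons above both lines.

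Mrgprd neurons carried Tmem63a. The 15 TL neurons had 34.2 ± 19.5 TPM, with a lowest level of 0, a median of 32.5 and a highest of 64.6 TPM, and 13 of them were at 10 TPM or more. The other 152 TL neurons had a mean of 2.48 TPM, a median of 0 and a highest level of 41.5 TPM. The highest of the other neurons thus lay above the median of those with Mrgprd, so that the ranges overlapped, and the ratio of means was 13.8. Of the 2 LS neurons with Mrgprd, LS neuron 84 had Mrgprd at 1189 TPM and Tmem63a at 28.7 TPM, and LS neuron 195 had them at 11.9 and 7.42 TPM. The single TL neuron of this class without a read on Tmem63a, TL neuron 70, had Mrgprd at 11.1 TPM and Tmem63c, Tmem120a and Tmem150c at 0 as well. It had the fewest genes of the class, 6563.

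In TL neurons, 3 of the 8 genes were past the fold by Mrgprd, all higher, against 20.3% of all genes in either direction and 7.45% higher. Direction could be read in plates 5 and 6 only, each with 5 such neurons. Besides Tmem63a these were Tmem63c, at 130.0 ± 55.5 against 56.2 ± 36.6 TPM, and Piezo2, at 64.3 ± 31.6 against 27.0 ± 42.0 TPM. Without plate 5 the log2 ratio of Tmem63c was 0.93, against 1.21 over all plates, and it was no longer past the fold. By geometric means the log2 ratio of Piezo2 was 3.41 and that of Tmem63a 4.97. Tmem63c was also above the 51.3 ± 37.9 TPM of TL neurons with neither marker, while Piezo2 was near the 60.9 ± 49.8 TPM of those neurons. The higher mean of Piezo2 with Mrgprd was therefore against a group in which most neurons had Gfra3. Tmem63b was at 54.0 ± 19.7 TPM with Mrgprd and 55.5 ± 30.3 TPM without.

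Within the family the share of each paralogue shifted. Over all 325 neurons the summed level of the 3 genes was made up of 3.02% Tmem63a, 44.5% Tmem63b and 52.5% Tmem63c. In TL neurons with Mrgprd the shares were 15.7%, 24.7% and 59.6%, and Tmem63c was the highest of the 3 in 14 of 15 neurons. In TL neurons without Mrgprd, Tmem63c was the highest in 69 of 152 and Tmem63b in 81. The median summed level was 233.6 TPM with Mrgprd and 122.9 TPM without. Tmem63a was the highest of the family in 2 of the 325 neurons.

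**Figure D4:**
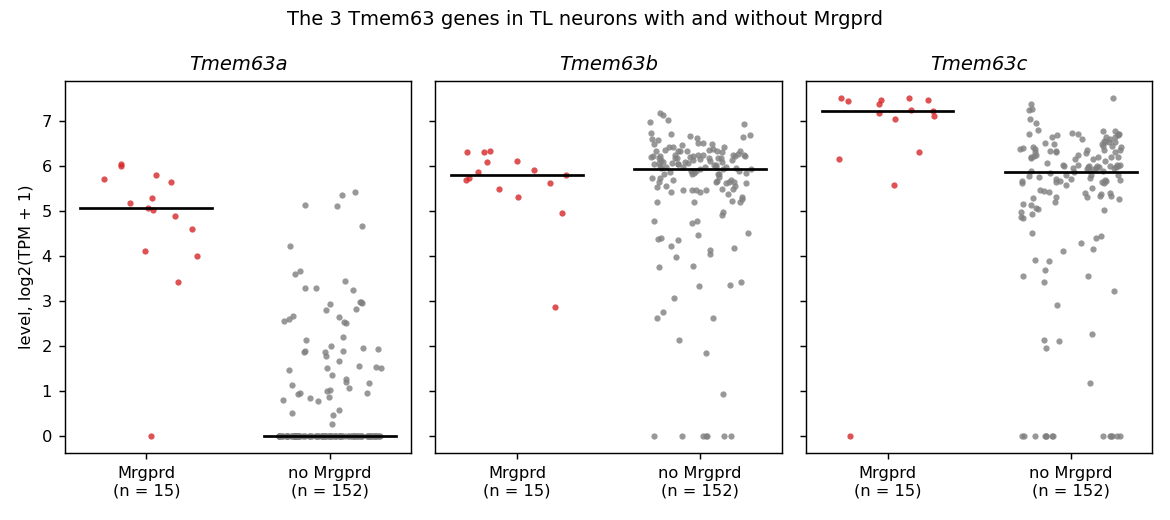
Level of Tmem63a, Tmem63b and Tmem63c in TL neurons with Mrgprd (n = 15, red) and without (n = 152, grey), as log2(TPM + 1). Points are neurons and black bars are medians. Tmem63a and Tmem63c are higher with Mrgprd, and the medians of Tmem63b lie close together.

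Outside the Mrgprd class 16 neurons had Tmem63a, 8 in each segment. Their levels ran from 10.4 to 63.8 TPM with a median of 16.3 TPM, of which the highest was LS neuron 109, a neuron with Gfra3. Their summed satellite glia level had a median of 6298 TPM, against 2860 TPM in the 292 neurons with neither Mrgprd nor Tmem63a. In TL neurons with Mrgprd this sum had a median of 3515 TPM, below the 4325 TPM of TL neurons with neither marker. The part of glial RNA in these 16 neurons was not tested.

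Among LS neurons with Gfra3, those with and without Ntm were compared by means over all plates, with direction read in plates 4 to 6. None of the 8 genes was past the fold, where 7.85% of all genes were. Tmem150c was at 17.8 TPM in 41 neurons with Ntm and 31.8 ± 16.0 TPM in 42 without, lower with Ntm in 3 of 3 plates by a ratio of 0.559. These means included plate 3, in which direction was not read. There Tmem150c was at a mean of 42.4 TPM in 11 neurons without Ntm and at 28.6 TPM in 1 with Ntm. In the 40 neurons with Gfra3 and Ntm and no Mrgprd its lowest, median and highest levels were 1.82, 17.4 and 41.6 TPM, against 4.97, 29.3 and 75.3 TPM in those without Ntm. The quartiles were 12.1 and 24.4 TPM with Ntm and 19.7 and 42.9 TPM without, so that the middle ranges overlapped in part. Without plate 4 or without plate 5 Tmem150c was past the fold, with a log2 ratio of -1.01 in each case, and without plate 4 so was Tmem63a (-1.75), of which most neurons had no read. The satellite glia sum had a median of 297 TPM with Ntm and 1325 TPM without, and its part in the difference was not tested. Piezo2 was at 1.69 TPM with and 2.64 TPM without Ntm, low in both groups.

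Neurons of the same marker class were then compared between segments. These classes rest on the marker genes only and need not hold the same neuron types in TL and LS DRG. The paper describes a neurofilament and a peptidergic subtype, each made up almost only of LS neurons. For Gfra3 without Ntm, none of the 8 genes was past the fold, where 5.74% of all genes were. Tmem63c was at 73.6 ± 37.5 TPM in LS and 58.8 ± 35.7 TPM in TL neurons, higher in 4 of 4 plates by a ratio of 1.25. Piezo2 was at 2.64 ± 7.20 TPM in LS and 8.28 ± 20.0 TPM in TL neurons, lower in 3 of 4 plates, and without plate 6 it was past the fold, with a log2 ratio of -1.98. Tmem120a, at 42.2 and 41.7 TPM, differed little between segments in this class.

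For neurons with neither Gfra3 nor Mrgprd, none of the 8 genes was past the fold, where 8.89% of all genes were. Tmem120a was at 67.0 ± 29.7 TPM in 74 LS and 42.9 ± 25.7 TPM in 54 TL neurons, higher in 5 of 5 plates by a ratio of 1.56. Its quartiles were 51.4 and 86.2 TPM in LS and 23.1 and 58.0 TPM in TL neurons. Tmem150c was at 17.8 ± 10.6 TPM in LS and 12.1 ± 6.99 TPM in TL neurons, also higher in 5 of 5 plates, though in plate 6 the means were nearly equal. Piezo2 was at 51.4 ± 35.7 TPM in LS and 60.9 ± 49.8 TPM in TL neurons, lower in 4 of 5 plates by means and higher by geometric means over all plates, with a log2 ratio of 0.14. The difference of Tmem120a between segments was thus found in neurons without Gfra3, where the log2 ratio was 0.64, while it was 0.02 in those with Gfra3 and no Ntm. Whether these ratios differ was not tested.

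**Figure D5:**
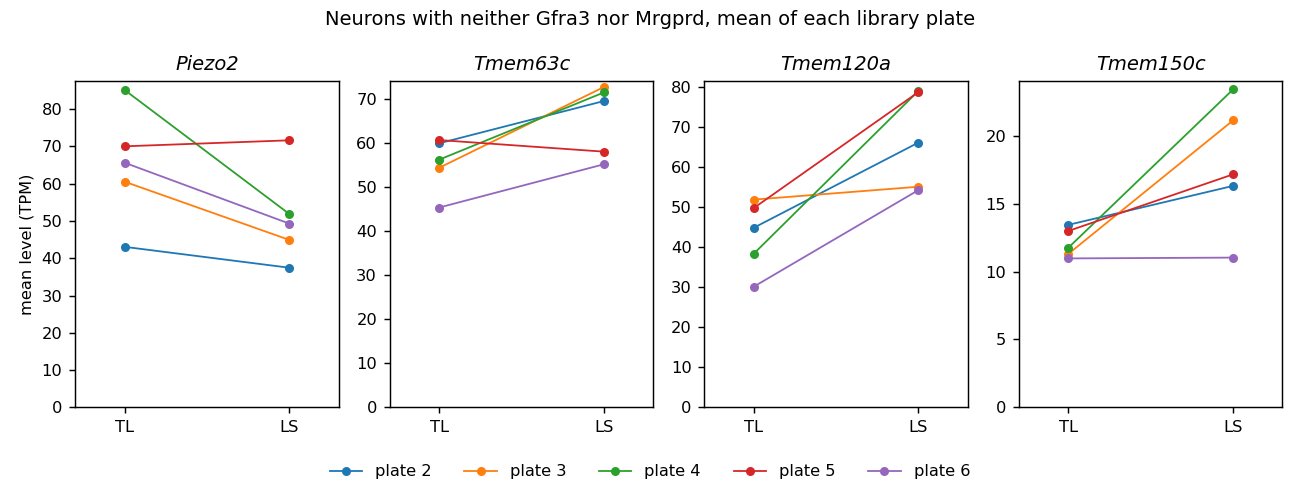
Mean level (y axis, TPM) of Piezo2, Tmem63c, Tmem120a and Tmem150c in neurons with neither Gfra3 nor Mrgprd, by segment (x axis). Each line joins the TL and LS means of a library plate, with 6 to 18 neurons behind each mean. Tmem120a and Tmem150c are higher in LS neurons in each of 5 plates, and Piezo2 is lower in 4 of 5.

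The neurons with Piezo1 or Stoml3 were few enough to be given singly. Piezo1 was at 63.9 TPM (471 reads) in TL neuron 43, at 41.2 TPM (200 reads) in TL neuron 140, at 15.6 TPM (230 reads) in LS neuron 85 and at 11.8 TPM (81 reads) in LS neuron 109. TL neuron 43 had a summed endothelial level of 24630 TPM, the highest of the 325 neurons, whose median was 44.4 TPM. TL neuron 140 and LS neuron 85 had satellite glia sums of 77230 and 62060 TPM, and the latter was the highest among LS neurons. LS neuron 109 had neither, with 2860 TPM of satellite glia genes and 18.7 TPM of endothelial genes, and it also had the highest Tmem63a of an LS neuron, 63.8 TPM.

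Stoml3 was at 25.7 TPM (27 reads) in TL neuron 140, a neuron that also had Piezo1, and at 22.5 TPM (45 reads) in TL neuron 179. Both had Gfra3 and no read on Piezo2. Their satellite glia sums were 77230 and 25670 TPM, against a median of 3801 TPM in TL neurons. Without the tenth of neurons highest in these genes no TL neuron had Stoml3. None of the 145 neurons with Piezo2 had Stoml3 at 10 TPM, which allows a share of up to 2.07% of them. With Stoml3 at 10 TPM in 2 of the 325 neurons only, this count cannot show whether Stoml3 occurs beside Piezo2. Below that level the 2 were seen together, as in TL neuron 173, with Piezo2 at 79.5 TPM and Stoml3 at 1.88 TPM.

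Presence of several genes in a neuron was common. Of the 325 neurons, 142 had 4 of the 8 genes, 104 had 5 and 20 had 6, and none had more. Tmem63b, Tmem63c, Tmem120a and Tmem150c were all present in 242 neurons (74.5%, 69.4% to 79.1%). These had a median of 14120 genes above 0, and the other neurons had 9431. Among 270 neurons with at least 10000 genes, 238 (88.1%) had all 4, against 4 of 55 (7.27%) with fewer. Absence of these genes therefore went with low gene counts, and its part in shares below 100% was not tested. Tmem63b had a Spearman's rho of 0.53 with the number of genes above 0, Tmem63c of 0.42, Tmem120a of 0.39, Tmem150c of 0.38 and Piezo2 of 0.20.

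Of neurons with Piezo2, 97.2% (93.1% to 99.2%) had Tmem63c and 97.2% had Tmem120a, against 81.7% (75.2% to 87.0%) and 88.3% (82.7% to 92.6%) of neurons without Piezo2. Tmem63a was present in 14.5% (9.19% to 21.3%) of neurons with Piezo2 and 5.00% (2.31% to 9.28%) of those without. This difference was not seen outside the Mrgprd class. There Piezo2 was present in 7 of 16 neurons with Tmem63a (43.75%) and in 123 of 292 without (42.1%). Tmem150c was present in 82.8% and 80.0%, a difference well inside the intervals. After each neuron had been thinned to 400000 reads and a gene called at 5 reads, Piezo2 was present in 53.9% of TL and 53.2% of LS neurons, and Tmem63a in 19.2% and 8.86%.

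The genes whose levels across neurons were most like those of each gene were found by Spearman's rho over 325 neurons, among 10283 genes present in at least 10% of them. The values share libraries and depth, and no p is given. Piezo2 had the closest likeness, with Paqr9 (rho 0.83), a membrane receptor of the progestin and adipoQ family, Pcolce2 (0.82), an enhancer of procollagen processing, Tns1 (0.78), a focal adhesion protein, Slc38a1 (0.78), an amino acid transporter, and Sept8 (0.78), a septin. All 5 also led within TL neurons alone and with plate means removed, and 3 of the 5 within LS neurons.

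Tmem63b was most like Mapk8ip3 (0.68), a scaffold of axonal transport, Atp6v0a1 (0.67), a proton pump subunit, Emc1 (0.65), Ggt7 (0.65) and Mapk8ip2 (0.65). Only 1 of these 5 led once plate means were removed. Tmem63c was most like L1cam (0.69), a neural adhesion molecule, Psap (0.64), the precursor of saposins, Dctn1 (0.63), a dynactin subunit, Abcc5 (0.63) and Uba1 (0.62), of which 2 led within TL neurons, 3 within LS neurons and 4 with plate means removed. Tmem150c was most like Calcb (0.64), a calcitonin gene-related peptide of peptidergic neurons, Cyfip2 (0.64), Amigo2 (0.63), Steap3 (0.60) and Dgkg (0.60), with higher rho in TL (0.70 for Calcb) than in LS neurons (0.54). Of these 5, 1 led within TL neurons, 1 within LS neurons and 4 with plate means removed. Tmem120a had the weakest likeness, with Emb (0.52), Pcsk1 (0.52), Pfkp (0.51), Atp5b (0.50) and Uqcrc1 (0.50), and Emb itself had a rho of 0.58 with the number of genes above 0. None of these 5 led within TL neurons.

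Other channels and partners of mechanosensation gave a frame for these values. Of a list of 43 such genes, all found, 33 passed the level between LS and TL neurons. Trpv1, the capsaicin receptor, was higher in LS neurons, at 926 against 453.8 TPM, and 5 genes were lower. Asic3 was at 26.2 TPM in LS and 128.5 TPM in TL neurons, and Trpa1 at 118.9 and 303.1 TPM. Trpc6 and Kcna1 were also lower in LS neurons. Of the 33 genes that passed the level, 6 were thus past the fold, where 6.88% of all genes compared were.

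By Gfra3 in TL neurons, 33 of the 43 passed the level, and 4 were higher and 4 lower, where 9.27% of all genes were past the fold. Kcnk2, the mechanosensitive potassium channel TREK-1, was at 64.7 TPM with and 1.77 TPM without Gfra3, and Trpa1 at 486.5 and 29.4 TPM. Kcna1, a potassium channel subunit, was at 3.94 TPM with and 37.1 TPM without Gfra3, the same direction as Piezo2. By Gfra3 in LS neurons, 4 of 32 were higher and 3 lower, against 9.59% of all genes in either direction, with Trpa1 at 223.7 TPM with and 2.99 TPM without Gfra3. By Mrgprd in TL neurons, 8 of 32 were higher and 9 lower, where 20.3% of all genes were past the fold and 7.45% were higher. Trpc6 was at 70.0 TPM with and 4.42 TPM without Mrgprd, a larger ratio than the 13.8 of Tmem63a. Stom, the stomatin to which Stoml3 is related, was at 81.9 TPM with and 18.3 TPM without Mrgprd.

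By Ntm among LS neurons with Gfra3, 3 of the 31 that passed the level were lower with Ntm and 0 higher, where 7.85% of all genes were past the fold. Trpa1 was among them, at 52.0 against 391.3 TPM. Between segments, 0 of 31 were past the fold within Gfra3 neurons without Ntm, against 5.74% of all genes. In neurons with neither Gfra3 nor Mrgprd, 4 of 33 were higher and 3 lower in LS neurons, against 8.89% of all genes in either direction. Asic3 was at 41.5 TPM in LS and 303.7 TPM in TL neurons of this class, in which Piezo2 differed by less than its spread. Trpv4, a channel of osmotic and mechanical stimuli, had a mean of 0.187 TPM and was below 10 TPM in each of the 325 neurons.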

How the data were processed

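Full-length cDNA of single Fast Blue-labelled colonic sensory neurons was sequenced by the authors as 75 bp paired-end reads. Per the labels and the submitters' processing notes, reads were demultiplexed with bcl2fastq (2.15.0.4), aligned to GRCm38.p3 with STAR (2.4.1) and counted on genes with featureCounts (1.4.4). The authors left out low-quality cells and deposited 1 table of normalised log2 values, log2(x + 1), for 325 of the 399 labelled neurons. The remaining 74 neurons, as well as 13 bath samples, are not analysed here. Strandedness of the counting is not given in the sources used here.

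Each value was turned into x = 2^value - 1 and rescaled so that each neuron summed to 1000000, which is named TPM in the text. The deposited x summed to between 218865 and 11159067 per neuron. Whole reads were recovered from x by exonic lengths from the GENCODE M21 annotation. With these lengths 65.02% of values above 0 were whole within a relative tolerance of 1e-06, and the lengths of 8712 further genes were found from the values. No 2 neurons had identical values. The recovery and the fold rule were tested on simulated data.

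Every neuron of the table was kept, and no doublet caller was run, since neurons were picked singly. Each segment was taken as 1 sample, so that no test was run. A gene was past the fold at a ratio of mean TPM of at least 2, a mean of both group means of at least 1 TPM and the same direction in each plate with at least 5 neurons in both groups (at least 3 for Mrgprd). The 8 genes were reported in every comparison. Of the list of 43 related genes, at most 6 past the fold were to be named in a comparison, those with the largest ratios. For each of the 8 genes present in at least 10% of neurons, the 5 genes with the highest rho were named. The genes, lists and comparisons were chosen with earlier results of these data known, and the split of neurons at 10000 genes, Trpv4, Asic3 and Nefh beside Piezo2, and the neurons given singly were chosen after their values had been seen. Shares of 0 of n were given with the limit of 3 divided by n. Alternatives changed the scale, the mean, the marker threshold, the neurons, the filter on low genes and the plates. Python (3.11.15), numpy (2.4.6), pandas (2.3.3) and scipy (1.17.1) were used.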

Additional observations from a re-analysis of the deposited data

How the results depend on the processing

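In most alternatives the count of the 8 genes past the fold was the reported one, and no log2 ratio of a gene past the fold changed sign. Between LS and TL neurons 1 gene, Tmem63a (lower in LS), was past the fold on the deposited values without rescaling and again without the tenth of neurons highest in satellite glia genes, against 0 as reported. Within Gfra3 neurons without Ntm 1 gene, Piezo2 (lower in LS), was past the fold between segments at a marker threshold of 5 TPM, against 0. Leaving out each plate in turn gave 0 to 1 gene between LS and TL neurons (1 without plate 4), 1 to 2 by Gfra3 in LS neurons (2 without plate 5, which added Tmem63a), 0 to 2 by Ntm (2 without plate 4, 1 without plate 5) and 0 to 1 between segments within Gfra3 neurons without Ntm (1 without plate 6). By Mrgprd the count was 2 without plate 5, which took out Tmem63c. By Gfra3 it was 2 in TL neurons with geometric means, which took out Tmem150c, and 3 with the segments together on the deposited values, which added Tmem150c. The cause of these changes was not tested. With no filter on low genes, the genes past the fold numbered 2391 against 1049 between LS and TL neurons, 2206 against 1389 by Gfra3 in TL, 2330 against 1466 by Gfra3 in LS, 2661 against 1446 by Gfra3 in both, 7194 against 3024 by Mrgprd, 2228 against 1196 by Ntm, 1857 against 863 between segments within Gfra3 neurons without Ntm and 2468 against 1324 within neurons with neither marker, since more genes were compared. For Gfra3 neurons without Ntm, the count between segments was also 1473 without rescaling and 555 with geometric means. On the deposited values without rescaling, the log2 ratio of Tmem120a by Gfra3 in TL neurons was 0.39, against 0.01. Shares moved with the threshold: Piezo2 was at 1 TPM or more in 56.3% of TL and 55.1% of LS neurons. Without neurons of few genes or high mitochondrial share, 0% of TL neurons had Piezo1. Stoml3 was present in 0% of TL neurons without the tenth highest in satellite glia genes. With geometric means the log2 ratio of Piezo2 was -4.76 in TL and -6.22 in LS neurons by Gfra3 and 3.41 by Mrgprd, and that of Tmem63b was 0.51 by Gfra3 in TL neurons and 0.27 by Mrgprd. No analysis paired by mouse was possible, since the mouse of each neuron is not named. Plates 2 to 6 held both segments, and directions within plates are given beside the results.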
